A study of Mus musculus with 12 samples.

Results

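The YAP target genes described here are 8 genes, Cyr61, Ctgf, Ankrd1, Amotl2, Lats2, Axl, Crim1 and Ajuba, chosen by name from the 24062 gene symbols of the count table, and all 8 were among the 12154 genes that passed the filter on low counts. They were chosen with earlier results of these data known. RNA-Seq read counts came from mouse embryonic fibroblasts (MEFs) of 2 stable lines, shRenilla MEFs, which carry a control shRNA against Renilla luciferase, and shBruce MEFs, which carry an shRNA (shBruce#1) against Birc6, the gene of the giant ubiquitin-conjugating enzyme BRUCE. Each line was kept in full medium (FM), high-glucose medium with fetal calf serum, or was put for 2 h into medium lacking serum and amino acids (Starv), and each of the 4 conditions had 3 replicate libraries. Each shRNA is represented by a single line, so the knockdown and other differences between the lines cannot be told apart. For starvation, the paper names Earle's balanced salt solution (EBSS) in several other assays, and its RNA-Seq methods name no medium. Starv is taken here as a medium without serum and amino acids, such as EBSS. The effects of removing serum, amino acids and other components of FM, such as its high glucose, cannot be told apart. The labels do not say whether replicates were separate cultures, so p-values measure the spread between these libraries.

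YAP and its relative TAZ (encoded by Wwtr1) are transcriptional co-activators without a DNA-binding domain of their own, and they reach promoters and enhancers through the TEAD factors. The kinases of the Hippo pathway, MST and LATS, phosphorylate YAP and TAZ and hold them in the cytoplasm. The activity of YAP and TAZ also follows serum lipids, cell shape and nutrient supply. Cyr61, Ctgf and Ankrd1 are the genes most often read as reporters of YAP, whereas Amotl2, Lats2 and Ajuba encode proteins that act within the pathway itself.

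Total counts ranged from 7717265 to 18510540 per library, with shBruce Starv replicate 1 the shallowest and the next at 13200393. The spread between replicate libraries exceeded that of counting, at a chi-square per degree of freedom of 46.4 to 92.3 among the shBruce Starv libraries and 2.18 to 27.4 in the other conditions. Values below are normalized read counts (TMM), and differences are log2 fold changes from edgeR's quasi-likelihood test with p-values adjusted (Benjamini-Hochberg) over the 12154 genes, called under 0.05. Birc6 lay between 2787 and 5061 in the 6 shRenilla libraries and between 703 and 1390 in the 6 shBruce libraries, a log2 fold change of -1.75 in FM (edgeR adjusted p = 0.063) and of -1.98 in Starv (edgeR adjusted p = 0.019). Of 8 fibroblast markers, 7 had a mean of at least 100 in every condition, and Thy1 was at or near 0 (at most 2.45). In any comparison of 2 groups, 0 of these 7 markers were called with edgeR, 1 to 3 had an unadjusted p under 0.05, and the DESeq2 Wald test or limma-voom called at most 2. Markers of other cell types summed to between 93.3 and 161 per library. Of the 3 tested, Cd68 (58.5 to 132) fell upon starvation in shBruce MEFs (-0.65, edgeR adjusted p = 0.039), and Ptprc was higher in starved shBruce than in starved shRenilla MEFs (1.52, edgeR adjusted p = 0.028) at 18.2 counts or fewer. Their part in the results was not tested. In bulk RNA, fewer cells of a type and less RNA per cell cannot be told apart.

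The promoters of the members are shown because TEAD factors bind the motif GGAATG, which was searched on both strands (CATTCC on the other) in RefSeq windows of 300 bases, 250 before and 50 after the start of transcription, on GRCm38.p6. The whole 250 bases before the start are printed for Cyr61 and Ankrd1, whose counts moved furthest among the members with a window, and 30 bases around each match for the other members, all from 5′ to 3′ with the matches in capitals.
Cyr61 chr3:145649986-145650235, minus strand: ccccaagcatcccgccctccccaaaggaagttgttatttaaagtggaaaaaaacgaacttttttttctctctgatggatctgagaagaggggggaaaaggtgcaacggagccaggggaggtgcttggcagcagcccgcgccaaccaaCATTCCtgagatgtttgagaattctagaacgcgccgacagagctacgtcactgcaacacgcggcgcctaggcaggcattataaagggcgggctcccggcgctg
Ankrd1 chr19:36119845-36120094, minus strand: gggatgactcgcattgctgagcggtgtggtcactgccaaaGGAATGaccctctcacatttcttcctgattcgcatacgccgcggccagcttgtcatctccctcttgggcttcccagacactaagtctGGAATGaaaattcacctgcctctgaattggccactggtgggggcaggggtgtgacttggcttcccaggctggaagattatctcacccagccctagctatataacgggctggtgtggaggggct
Amotl2 chr9:102717727-102717756, plus strand: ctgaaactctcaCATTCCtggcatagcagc
Lats2 chr14:57746102-57746131, minus strand: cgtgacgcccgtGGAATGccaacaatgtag
Axl chr7:25788949-25788978, minus strand: ggaaattctacaGGAATGtttaccagaccc
Crim1 chr17:78200157-78200186, plus strand: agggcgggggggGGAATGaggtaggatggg
Ajuba chr14:54577830-54577859, minus strand: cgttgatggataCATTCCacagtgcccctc
Ajuba chr14:54577808-54577837, minus strand: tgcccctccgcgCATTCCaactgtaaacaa
All 7 members with a window held the motif. It started 103 bases before the start of transcription in Cyr61, 210 and 123 before it in Ankrd1, 65 before it in Amotl2, 233 before it in Axl, 79 before it in Crim1, and 186 and 164 before it in Ajuba. In Lats2, it began at base 5 of the transcript in 1 of the 2 windows of the gene. All these starts are those of RefSeq, and in Ankrd1, Amotl2 and Lats2 they lie inside the gene spans given below. By comparison, 14.7% of the 32851 windows in the table and 12.1% of the 12195 windows of genes tested held the motif. These shares are per window, and the 12195 windows belong to 9568 gene symbols. The members and the lists are instead counted per gene, where any window of the gene held the motif. Among the lists described further below, it was present in 1 of 9 other YAP/TAZ-TEAD target genes, 5 of 6 genes of YAP, TAZ and their partners, 4 of 17 genes of the Hippo kinases and upstream regulators, and 2 of 9 relatives of the members that had a window. These matches describe letters in a window and not binding, and the genes were listed with such knowledge in view, so no test is given. Ctgf had no window in the table.

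In FM, the members covered a broad range of levels per transcript length. In shRenilla MEFs in FM, Cyr61 had the highest level with 421 ± 42.0 RPKM (SD, n = 3), followed by Ctgf with 290 ± 22.9 RPKM, Axl with 184 ± 4.66 RPKM, Ajuba with 75.9 ± 2.57 RPKM and Amotl2 with 64.1 ± 3.97 RPKM, and the ranges of neighbours in this order did not overlap. Crim1 (41.8 ± 4.76 RPKM), Ankrd1 (35.9 ± 2.93 RPKM) and Lats2 (32.0 ± 3.79 RPKM) came last, and each overlapped with the next. After starvation the order changed. Axl led in shRenilla MEFs with 161 ± 7.96 RPKM, Amotl2 (55.4 ± 1.30 RPKM) and Ajuba (55.1 ± 1.73 RPKM) could not be separated, and Cyr61 (50.4 ± 2.55 RPKM), Ctgf (38.5 ± 0.71 RPKM) and Crim1 (31.8 ± 3.62 RPKM) followed, with Lats2 (29.1 ± 2.91 RPKM) overlapping Crim1, and Ankrd1 lowest at 7.50 ± 0.51 RPKM. In shBruce MEFs, Cyr61 again led in FM, with a wide range of 202 to 386 RPKM that overlapped with Ctgf (88.1 to 259 RPKM), and Axl (134 ± 15.4 RPKM) led in Starv, where Cyr61 spanned 11.1 to 44.5 RPKM and Ankrd1 1.58 to 12.6 RPKM.

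**Figure D1:**
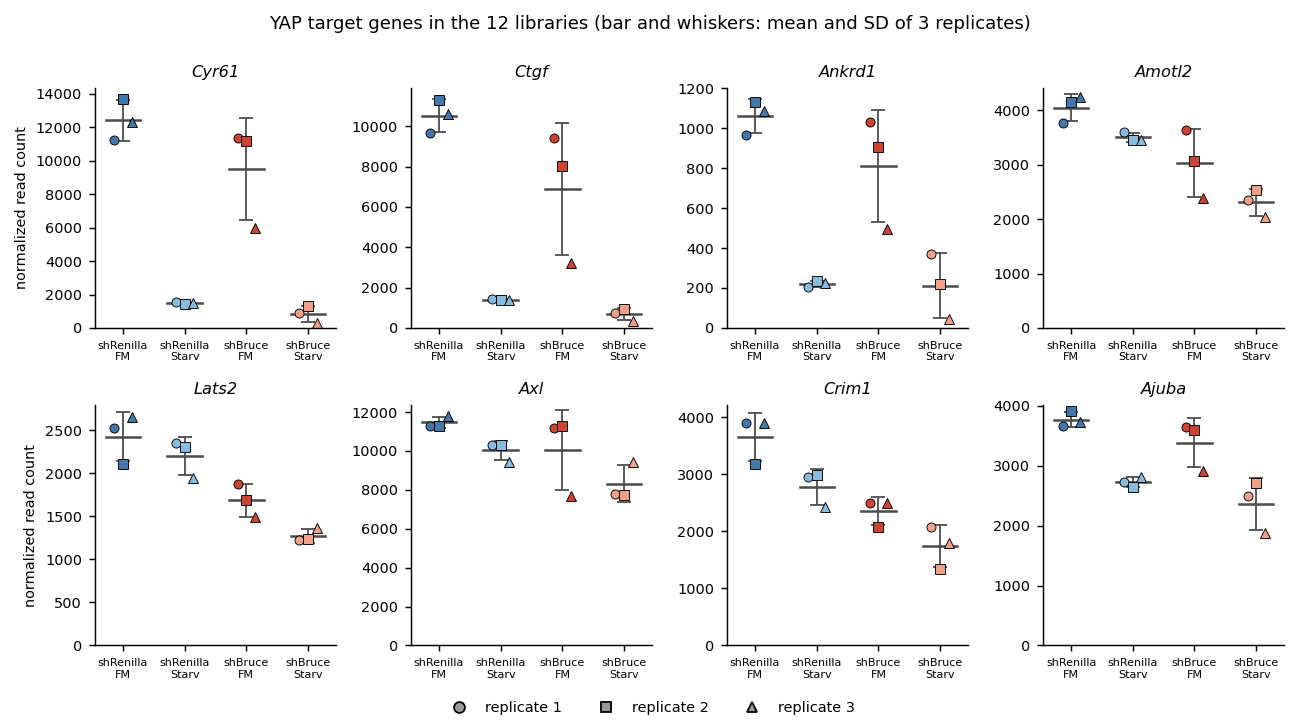
Normalized read counts (y axis, linear and from 0) of the 8 YAP target genes in each of the 12 libraries, by line and medium on the x axis, with symbols for the replicates and bars and whiskers for the mean and SD of 3. Cyr61, Ctgf and Ankrd1 lie far lower in Starv than in FM in both lines, with shRenilla MEFs of Cyr61 between 11219 and 13687 in FM and between 1414 and 1563 in Starv, whereas Axl is at 7673 or more in every library.

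Starvation of control cells was examined first. In shRenilla MEFs, 4 of the 8 members fell at an adjusted p under 0.05 and none rose, against 17.0% of all genes tested that were called and 7.27% that were called as lower. The 3 reporter genes fell to between 12.0% and 20.9% of their FM means, Ajuba fell to 72.6%, and the fitted changes of the other 4 lay between -0.39 and -0.14. All 8 estimates were below 0, with a median of -0.43, whereas 6137 of the 12154 genes were below 0 and the median of all was -0.01. Because the members were chosen with earlier results of these data known, such counts beside all genes, here and below, are a description and not a test.

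Cyr61 (ENSMUSG00000028195.4, named Ccn1 in the annotation, chromosome 3, 145646976 to 145649981, minus strand) encodes a secreted matricellular protein that binds integrins. Its normalized counts in shRenilla MEFs were 11219, 13687 and 12312 in FM and 1563, 1414 and 1479 in Starv. The lowest FM library thus lay far above the highest Starv library. The log2 fold change was -3.06 (SE 0.39, 95% confidence interval -3.90 to -2.22, edgeR adjusted p = 0.00018), the 10th lowest of the 12154 genes. Ctgf (ENSMUSG00000019997.11, Ccn2 in the annotation, chromosome 10, 24595442 to 24598683, plus strand) encodes a secreted protein of the same CCN family, known for driving matrix production in fibroblasts. It had 9649, 11305 and 10623 normalized counts in FM and 1430, 1383 and 1389 in Starv, where the 3 libraries were nearly equal (CV 1.83%). Ctgf changed by -2.91 (SE 0.37, 95% confidence interval -3.70 to -2.12, edgeR adjusted p = 0.00017), the 16th lowest value. In GENCODE M21, 23.2% of the exon bases of Ctgf lie opposite a transcript on the other strand, Gm15270, and whether reads were counted by strand is not given in the sources used here.

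Ankrd1 (ENSMUSG00000024803.9, chromosome 19, 36111961 to 36120099, minus strand) encodes an ankyrin repeat protein of the nucleus and the sarcomere. Its counts were far lower than those of Cyr61, with 965, 1133 and 1083 in FM and 205, 235 and 223 in Starv. Here too the groups were far apart. The log2 fold change was -2.26 (SE 0.47, 95% confidence interval -3.28 to -1.24, edgeR adjusted p = 0.0055), the 40th lowest. The falls of Cyr61, Ctgf and Ankrd1 were called under all 22 alternative settings of the analysis, with values between -3.13 and -2.98 for Cyr61, between -2.97 and -2.83 for Ctgf, and between -2.33 and -2.18 for Ankrd1.

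The members that act inside the Hippo pathway had smaller differences. Ajuba (ENSMUSG00000022178.11, chromosome 14, 54567472 to 54577558, minus strand) encodes a LIM protein that binds and restrains LATS kinases. It had 3664, 3909 and 3726 normalized counts in FM and 2736, 2646 and 2818 in Starv, without overlap, and a log2 fold change of -0.46 (SE 0.14, edgeR adjusted p = 0.037). This call was lost when any 1 of the 6 shRenilla libraries was left out (values between -0.49 and -0.44) and with upper-quartile normalization (-0.38, adjusted p = 0.079). Amotl2 (ENSMUSG00000032531.15, chromosome 9, 102716672 to 102733418, plus strand), an angiomotin family protein that holds YAP at cell junctions, had 3764, 4149 and 4235 in FM and 3597, 3454 and 3459 in Starv. The groups did not overlap, yet the fitted value of -0.21 was not called (edgeR adjusted p = 0.35). Lats2 (ENSMUSG00000021959.16, chromosome 14, 57689662 to 57758388, minus strand), a kinase that phosphorylates YAP, had 2526, 2105 and 2654 in FM and 2357, 2301 and 1950 in Starv, which overlapped. Its value was -0.14 (edgeR adjusted p = 0.49). In GENCODE M21, 42.4% of the exon bases of Lats2 are shared with a second gene model on the same strand, Gm49361, so its count depends on how such reads were assigned.

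Axl and Crim1 encode membrane proteins. Axl (ENSMUSG00000002602.16, chromosome 7, 25757273 to 25788705, minus strand), a receptor tyrosine kinase for Gas6, had 11299, 11309 and 11807 in FM and 10302, 10329 and 9458 in Starv. The difference of -0.19 was not called (edgeR adjusted p = 0.40), although every Starv library lay below every FM library. Crim1 (ENSMUSG00000024074.8, chromosome 17, 78200248 to 78376592, plus strand), a transmembrane protein with cysteine-rich repeats that binds BMPs, had 3897, 3177 and 3901 in FM and 2953, 2983 and 2420 in Starv. These did not overlap either, with a value of -0.39 (edgeR adjusted p = 0.11). Crim1 was called when only the 6 shRenilla libraries were fitted (-0.37, adjusted p = 0.021) and after dependence on transcript length and on GC content had been regressed out (-0.51, adjusted p = 0.011). A stretch of 2.05% of its exon bases lies opposite Fez2, a gene on the other strand. Where groups of 3 did not overlap, the exact permutation test gave a two-sided p of 0.1, the smallest that 3 libraries against 3 allow. How many of all genes had such separate groups is not given, here or below.

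Starvation of the BRUCE knockdown line was the next comparison. In shBruce MEFs, 5 of the 8 members fell and none rose, against 23.0% of all genes tested that were called and 10.6% called as lower. Cyr61 fell to 8.85% of its FM mean, Ctgf to 9.89% and Ankrd1 to 26.2%, while Lats2 and Ajuba fell to 75.5% and 69.8%. All 8 estimates were below 0, with a median of -0.48, against 5842 of the 12154 genes and a median of 0.02.

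In shBruce MEFs, Cyr61 had 11371, 11156 and 5955 normalized counts in FM and 882, 1311 and 326 in Starv. Replicate 3 was the lowest library in both media. The log2 fold change of Cyr61 was -3.50 (SE 0.40, 95% confidence interval -4.36 to -2.64, edgeR adjusted p = 7.1e-05), the 7th lowest of all genes. Ctgf had 9430, 8023 and 3203 in FM and 745, 929 and 369 in Starv, again with replicate 3 lowest in both. It changed by -3.34 (SE 0.38, 95% confidence interval -4.15 to -2.53, edgeR adjusted p = 6.5e-05), the 13th lowest. Ankrd1 had 1030, 906 and 493 in FM and 371, 218 and 46.4 in Starv, so that its 3 starved libraries spanned a wide range (CV 76.7%) without reaching the FM libraries. Its value was -1.99 (SE 0.48, 95% confidence interval -3.03 to -0.95, edgeR adjusted p = 0.010), and leaving out shBruce Starv replicate 3 gave -1.49 and leaving out shBruce Starv replicate 1 gave -2.65. Ankrd1 was not called when only the 6 shBruce libraries were fitted (-1.96, adjusted p = 0.068).

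Ajuba in shBruce MEFs had 3650, 3596 and 2913 in FM and 2499, 2714 and 1882 in Starv, without overlap, and fell by 0.52 on the log2 scale (SE 0.14, edgeR adjusted p = 0.017). Lats2 had 1879, 1691 and 1495 in FM and 1223, 1234 and 1365 in Starv. These groups were also separate, and the value of -0.40 (SE 0.13, edgeR adjusted p = 0.040) passed in 11 of the 22 alternatives. Amotl2 had 3637, 3077 and 2386 in FM and 2346, 2535 and 2040 in Starv, and Axl had 11181, 11302 and 7673 against 7767, 7756 and 9419, both overlapping. Neither was called, with -0.40 (edgeR adjusted p = 0.067) for Amotl2 and -0.27 (edgeR adjusted p = 0.20) for Axl. Without shBruce FM replicate 3, which had the lowest FM count of Amotl2 and of Axl, both passed (-0.55, adjusted p = 0.012 and -0.44, adjusted p = 0.026), and 7 of the 8 members were called. In the other direction, Amotl2 was at -0.25 without shBruce FM replicate 1, and Axl at -0.19 and -0.18 without shBruce FM replicate 1 or 2. Crim1 had 2503, 2080 and 2501 in FM and 2075, 1347 and 1793 in Starv, groups that only just failed to touch at 2080 and 2075, and a value of -0.44 (edgeR adjusted p = 0.065). The count of 5 members was 3 without shBruce FM replicate 1 or without shBruce FM replicate 2 (Cyr61, Ctgf and Ankrd1), and 2 when only the 6 shBruce libraries were fitted (Cyr61 and Ctgf). Of all genes tested, 15.6%, 15.1% and 8.11% were called in these fits in the same order, and 20.9% without shBruce FM replicate 3.

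**Figure D2:**
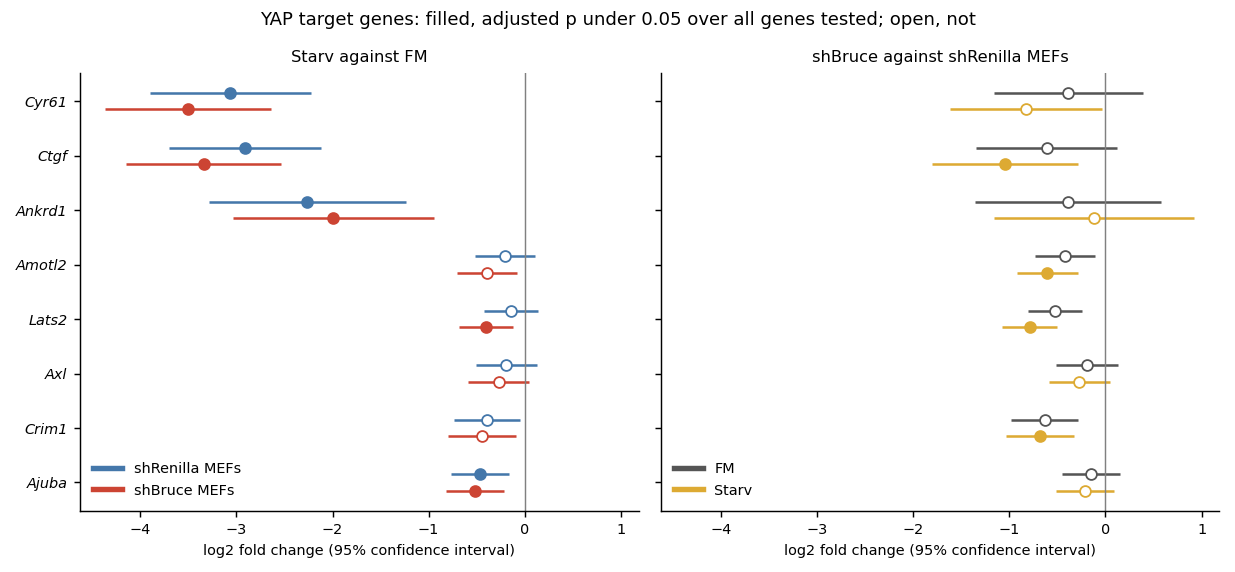
Log2 fold changes of the 8 members with 95% confidence intervals from edgeR (x axis, genes on the y axis), for Starv against FM in each line (left) and for shBruce against shRenilla MEFs in each medium (right), filled where the adjusted p is under 0.05. Cyr61, Ctgf and Ankrd1 lie between -3.50 and -1.99 on the left and the other 5 members between -0.52 and -0.14, while all values on the right lie between -1.04 and -0.12.

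Whether the starvation response differed between the lines was tested with the interaction of line and medium. For 0 of the 8 members was it called (0.0% of all genes tested), and 0 of them had an unadjusted p under 0.05 in edgeR, with the DESeq2 Wald test and limma-voom also calling 0. The estimates were -0.44 for Cyr61 (95% confidence interval -1.54 to 0.66), -0.43 for Ctgf (95% confidence interval -1.48 to 0.62) and 0.27 for Ankrd1 (95% confidence interval -1.15 to 1.69). The intervals were narrower for the other members, at -0.66 to 0.13 for Lats2 and -0.63 to 0.26 for Amotl2, so a difference between the lines was neither shown nor bounded closely for the 3 reporter genes. The values of Cyr61 and Ctgf moved with single libraries, with -0.05 and -0.13 if shBruce Starv replicate 3 was left out, and -0.94 and -0.74 if shBruce Starv replicate 2 was.

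The lines were then compared within each medium, with the knockdown libraries of the same medium set against the controls. These comparisons use the same libraries as those of starvation above. In FM, 0 of the 8 members were called with edgeR, as was the case for 0.0% of all genes tested (1750 genes had an unadjusted p under 0.05). At an unadjusted p under 0.05, 3 members were lower in shBruce MEFs. These were Crim1 (-0.63, SE 0.16, 64.5% of the shRenilla mean), Lats2 (-0.52, SE 0.13, 69.5%) and Amotl2 (-0.42, SE 0.14, 74.9%). For each of them every shBruce library lay below every shRenilla library. That also held for Ctgf and Ajuba, at an unadjusted edgeR p of 0.095 and 0.29, and the share of all genes with separate groups is not given. The DESeq2 Wald test called Lats2 alone (adjusted p = 0.039), limma-voom called 0, and a fit of the 6 FM libraries alone called Lats2 (adjusted p = 0.048) and Crim1 (adjusted p = 0.047). Of all genes tested, these called 0.625%, 0.0% and 5.11% in the same order. All 8 estimates lay below 0, with a median of -0.40, against 5955 of the 12154 genes and a median of 0.01.

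Several values in FM moved with shBruce FM replicate 3, among them Amotl2, which was at -0.27 without that library. Cyr61 was at 11371 and 11156 in shBruce replicates 1 and 2, within the shRenilla range of 11219 to 13687 or just below it, and at 5955 in replicate 3. The value of Cyr61 was -0.39 (95% confidence interval -1.16 to 0.39) and -0.14 without that library. Ctgf lay below the shRenilla libraries in all 3 shBruce libraries, at -0.61 (95% confidence interval -1.35 to 0.12, edgeR adjusted p = 0.40) and -0.27 without replicate 3. Ankrd1 went from -0.39 to -0.13 and Axl from -0.19 to -0.03 when it was left out. Ajuba was at -0.15 (95% confidence interval -0.45 to 0.15) and -0.06 without it.

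After starvation, 4 of the 8 members were lower in shBruce than in shRenilla MEFs and none was higher, against 23.9% of all genes tested that were called and 11.2% called as lower. They were Ctgf at 48.6% of the shRenilla mean, Lats2 at 57.9%, Crim1 at 62.4% and Amotl2 at 65.8%. All 8 estimates were below 0, with a median of -0.64, against 6086 of the 12154 genes and a median of -0.0012.

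Lats2 had 1223, 1234 and 1365 normalized counts in starved shBruce MEFs against 1950 to 2357 in starved shRenilla MEFs, with a log2 fold change of -0.79 (SE 0.13, 95% confidence interval -1.07 to -0.51, edgeR adjusted p = 0.022). Crim1 had 2075, 1347 and 1793 against 2420 to 2983 (-0.68, SE 0.16, 95% confidence interval -1.03 to -0.33, edgeR adjusted p = 0.023). Its transcript is the longest of the members with 5995 bases, and once the length and GC trends were removed its value was -0.38 (adjusted p = 0.080). Amotl2 had 2346, 2535 and 2040 against 3454 to 3597 (-0.60, SE 0.15, 95% confidence interval -0.92 to -0.29, edgeR adjusted p = 0.023). Each of these groups was fully separated, as were those of Cyr61 and Axl, which were not called. The share of all genes with separate groups in this comparison is not given. Ctgf had 745, 929 and 369 against 1383 to 1430, and -1.04 (SE 0.35, 95% confidence interval -1.80 to -0.29, edgeR adjusted p = 0.047). Ctgf moved with single libraries, with -0.74 when shBruce Starv replicate 3 was left out and -1.35 when shBruce Starv replicate 2 was, and it was called in 2 of the 12 fits that left out a library, against 9 of 12 for each of the other 3.

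These calls, like those of all genes tested between the starved lines, depended on a few libraries. The count of 4 members was 0 without shRenilla Starv replicate 1, without shRenilla Starv replicate 2 or without shBruce Starv replicate 2, with 4, 4 and 6 members at an unadjusted p under 0.05, and 0 in a fit of the 6 Starv libraries alone (adjusted p = 0.12 for each of the 4). It was 1 (Lats2) with the length and GC trends removed, where 5.36% of all genes tested were called. The effect sizes of Lats2 stayed between -0.87 and -0.57 and those of Amotl2 between -0.68 and -0.52 over all alternatives.

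The remaining members were not called in Starv. Cyr61 had 882, 1311 and 326 against 1414 to 1563 in starved shRenilla MEFs, with no overlap, and a value of -0.83 (95% confidence interval -1.62 to -0.03, edgeR adjusted p = 0.11), which became -0.43 when shBruce Starv replicate 3 was left out and -1.32 when shBruce Starv replicate 2 was. Ankrd1 had 1 starved shBruce library above, 1 within and 1 far below the shRenilla range, and its value of -0.12 (95% confidence interval -1.16 to 0.92) turned to 0.38 without shBruce Starv replicate 3. Axl was at -0.27 (edgeR adjusted p = 0.18) and Ajuba at -0.21 (edgeR adjusted p = 0.27). Ajuba went to -0.07 when shBruce Starv replicate 3 was left out and to -0.32 when shBruce Starv replicate 2 was.

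The spread between replicates was itself uneven. In shRenilla MEFs, the CV of Cyr61 was 9.97% in FM and 5.04% in Starv, and that of Ctgf was 7.91% and 1.83%. In shBruce MEFs, the CV of Cyr61 was 32.3% in FM and 58.8% in Starv, and that of Ctgf was 47.4% and 42.0%. Lats2 did not share this pattern, with CVs of at most 11.8% in the 4 conditions. In FM, shBruce replicate 3 was the lowest shBruce library for 7 of the members (all but Crim1), and in Starv for Cyr61, Ctgf, Ankrd1, Amotl2 and Ajuba but not for Lats2, Axl or Crim1. The total count of these replicates, 14802390 in FM and 14778105 in Starv, was not low, and the part of other properties of these libraries in the result was not tested.

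Cyr61 and Ctgf moved together from library to library. The correlation of their log2 values over the 12 libraries was 0.99, and both share the libraries and the medium, so this is a description. The per-length ratio of Cyr61 to Ctgf within a library was between 1.26 and 1.49 in the 6 shRenilla libraries, and between 1.09 and 2.29 in the 6 shBruce libraries, where replicate 3 held the highest (FM) and the lowest (Starv) value. Ankrd1 followed Cyr61 with 0.95 and Ajuba with 0.97, whereas Lats2 (0.52), Crim1 (0.58) and Axl (0.60) were less like it. Lats2 was closest to Crim1 and Amotl2, with 0.90 for each.

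**Figure D3:**
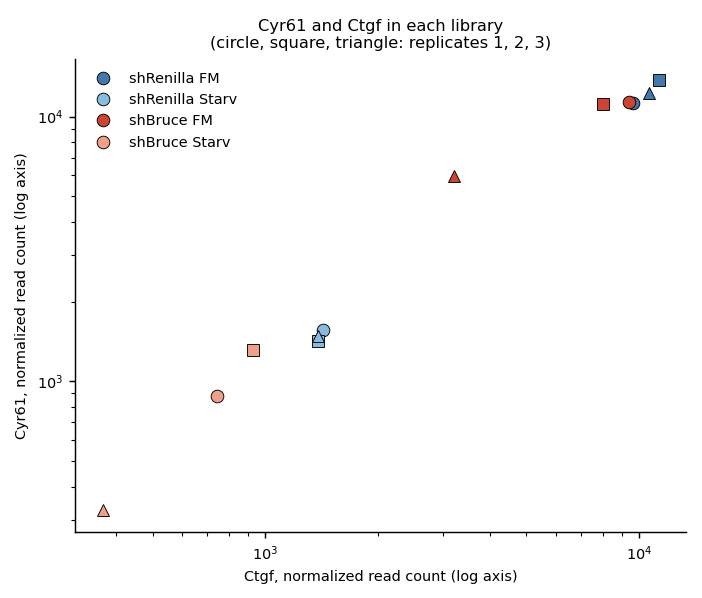
Normalized read count of Cyr61 (y axis) against that of Ctgf (x axis) in each of the 12 libraries, on log axes, with a colour for each condition and a symbol for each replicate. The FM and Starv libraries form 2 separate clouds in both lines, and shBruce replicate 3 is the lowest of its condition on both axes, with Cyr61 at 5955 in FM and 326 in Starv.

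Genes outside the list with the most similar profile were named by the Pearson correlation of log2 normalized counts over the 12 libraries, among 10364 tested genes with a mean of at least 50. For Cyr61 these were Plk2 (0.99), a polo-like kinase, Fgd3 (0.99), an exchange factor for Cdc42, and Akap8 (0.98), a nuclear anchoring protein. For Ctgf they were Fgd3 (0.99), Akap8 (0.99) and Dzip1l (0.99). For Ankrd1 they included Rrn3 (0.97), a factor of RNA polymerase I, and Litaf (0.96). Their own differences upon starvation were smaller than those of the members they follow. Plk2 was at -1.20 in shRenilla and -1.66 in shBruce MEFs, and Rrn3 at -0.41 and -0.34, on the log2 scale.

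YAP, TAZ, the DNA-binding TEAD factors and the TEAD co-factors Vgll3 and Vgll4 were measured next to their targets. Of these 8 genes, 3 fell upon starvation in shRenilla MEFs and 4 in shBruce MEFs, and none rose. The shares of all genes tested that were called were 17.0% (7.27% as lower) and 23.0% (10.6% as lower). The medians were -0.25 and -0.41. Yap1 had 3371, 3152 and 3419 normalized counts in FM and 2801, 2861 and 2675 in Starv in shRenilla MEFs (-0.25, edgeR adjusted p = 0.13). In shBruce MEFs it had 3444, 3223 and 3054 in FM and 2087, 2570 and 2530 in Starv, and it fell by 0.43 on the log2 scale (SE 0.11, edgeR adjusted p = 0.013). In both lines the starved libraries lay below the fed ones. Wwtr1, which encodes TAZ, overlapped between FM and Starv in both lines, with 0.16 (edgeR adjusted p = 0.45) in shRenilla MEFs and -0.12 (edgeR adjusted p = 0.57) in shBruce MEFs.

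Among the partners, some TEAD factors passed the test upon starvation and others did not. Tead1 had the highest count of them with 4277 to 5927 in shRenilla FM, and it was not called upon starvation, nor was Tead2. Tead3 fell in both lines, from 615 to 657 in FM to 347 to 401 in Starv in shRenilla MEFs (-0.74, SE 0.13, edgeR adjusted p = 0.0016) and by 0.54 on the log2 scale in shBruce MEFs (edgeR adjusted p = 0.0088). Tead4 also fell, with -0.64 in shRenilla MEFs (edgeR adjusted p = 0.032) and -0.97 in shBruce MEFs (edgeR adjusted p = 0.0029). The call in shRenilla MEFs held in 13 of the 22 alternatives and in 6 of the 12 fits that left out a library, and that in shBruce MEFs in all of them. Vgll3, a co-factor that competes with YAP for TEAD, had 3320, 2588 and 3264 in FM and 1992, 2068 and 1546 in Starv in shRenilla MEFs (-0.71, SE 0.16, edgeR adjusted p = 0.0083), and it fell by 0.96 on the log2 scale in shBruce MEFs (edgeR adjusted p = 0.0012). Vgll4 was low in all libraries, between 85.4 and 210, and was not called.

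Between the lines in FM, 0 of these 8 genes were called with edgeR, as for 0.0% of all genes tested, 1 with the DESeq2 Wald test and 0 with limma-voom. At an unadjusted p under 0.05 in edgeR there were 4, against 1750 of the 12154 genes. After starvation, 3 of the 8 were lower in shBruce MEFs, against 23.9% of all genes tested that were called and 11.2% called as lower. Wwtr1 had 1704, 2019 and 2486 in starved shBruce MEFs against 2825 to 3353 in starved shRenilla MEFs (-0.61, SE 0.14, edgeR adjusted p = 0.022). Tead1 was at -0.66 (SE 0.17, edgeR adjusted p = 0.027) and Vgll3 at -0.93 (SE 0.16, edgeR adjusted p = 0.022), and neither overlapped between the lines. With the length and GC trends removed, these values were -0.24 for Wwtr1, -0.14 for Tead1 and -0.33 for Vgll3, and none was called. Leaving out shRenilla Starv replicate 1 or 2 also reduced the count of 3 to 0, and leaving out shBruce Starv replicate 2 reduced it to 1. Of all genes tested, 0.0%, 0.0% and 0.122% were called in these fits in the same order. Yap1 itself was at -0.21 (edgeR adjusted p = 0.16) in Starv and -0.03 (edgeR adjusted p = 0.89) in FM.

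**Figure D4:**
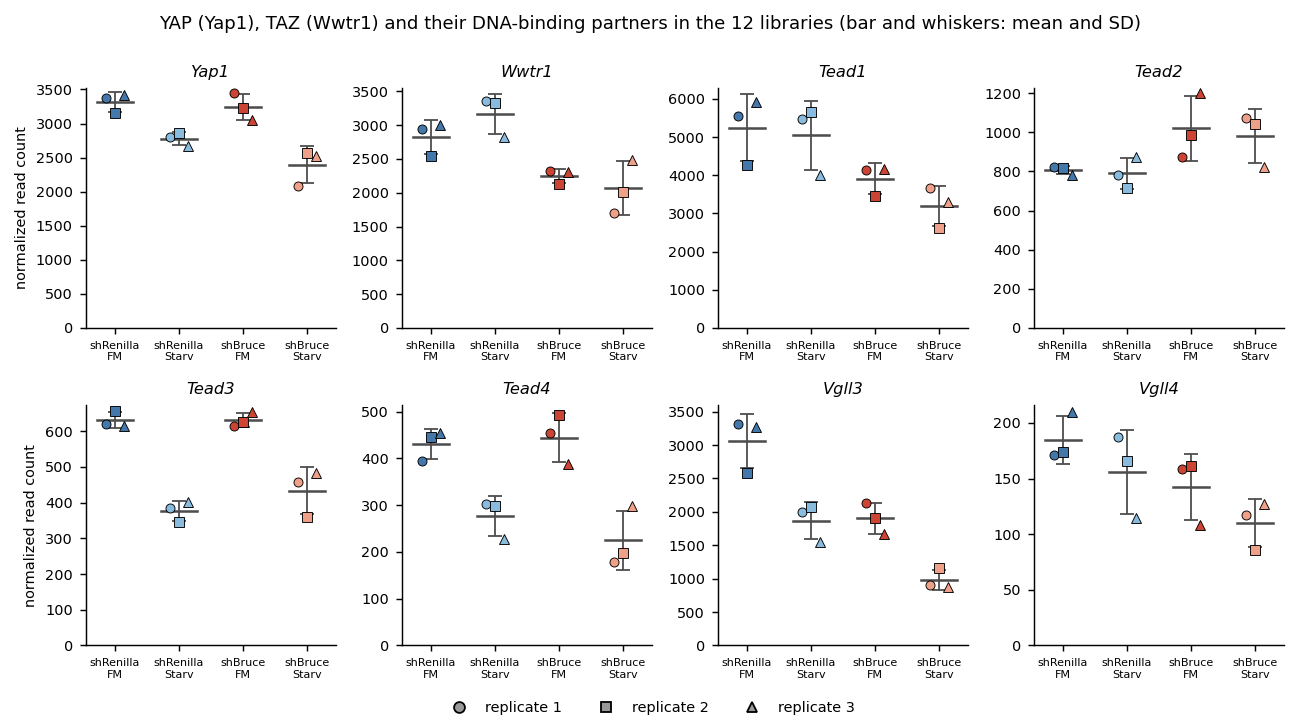
Normalized read counts (y axis, linear and from 0) of Yap1, Wwtr1, Tead1 to Tead4, Vgll3 and Vgll4 in the 12 libraries, by line and medium on the x axis, with bars and whiskers for the mean and SD of 3 replicates. Tead3, Tead4 and Vgll3 are lower in Starv than in FM in both lines. Vgll3 counts also lie lower in shBruce MEFs, a difference called in Starv but not in FM (edgeR adjusted p = 0.25). With the length and GC trends removed, it was not called in Starv either.

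A list of 15 further YAP/TAZ-TEAD target genes showed both directions. In each line, 5 fell upon starvation and 1 rose, with medians of -0.33 in shRenilla and -0.63 in shBruce MEFs. Of all genes tested, 17.0% were called in shRenilla MEFs (7.27% as lower) and 23.0% in shBruce MEFs (10.6% as lower). F3, which encodes tissue factor, the starter of blood coagulation, fell most. It had 2409, 2452 and 2458 normalized counts in FM and 446, 466 and 485 in Starv in shRenilla MEFs (-2.39, SE 0.27, edgeR adjusted p = 6.8e-05), and -2.70 in shBruce MEFs (edgeR adjusted p = 3.0e-05). Nuak2, a kinase related to AMPK, fell by 1.06 on the log2 scale in shRenilla and by 0.95 in shBruce MEFs. Fjx1, a Golgi kinase, fell by 0.83 (edgeR adjusted p = 0.022) and 1.09 (edgeR adjusted p = 0.0052) on the same scale. Foxf2, a forkhead factor, fell in shRenilla MEFs (-0.87, edgeR adjusted p = 0.014) and was at -0.64 in shBruce MEFs (edgeR adjusted p = 0.052). Gadd45a, a growth arrest gene that several stress pathways also induce, was the member of the list that rose, from 294, 301 and 297 in FM to 1737, 1692 and 1994 in Starv in shRenilla MEFs (2.60, SE 0.13, edgeR adjusted p = 1.0e-07) and by 2.87 in shBruce MEFs (edgeR adjusted p = 6.8e-08). The count of 5 that fell in shRenilla MEFs was 2 or 3 when any 1 of the 6 shRenilla libraries was left out, and that in shBruce MEFs was 8 without shBruce Starv replicate 3. Of all genes tested, the former fits called 9.34% to 12.2% in shRenilla MEFs. The latter called 32.7% in shBruce MEFs, with 2035 of 12278 genes as lower.

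Between the lines in FM, 0 of the 15 were called with edgeR, as for 0.0% of all genes tested, and 0 with the DESeq2 Wald test or limma-voom. At an unadjusted p under 0.05 in edgeR there were 4, against 1750 of the 12154 genes. In Starv, 6 of the 15 were lower in shBruce MEFs, against 23.9% of all genes tested that were called and 11.2% called as lower. As for the members, the count of 6 was 0 without shRenilla Starv replicate 1, shRenilla Starv replicate 2 or shBruce Starv replicate 2, and it was 2 without shBruce Starv replicate 1. Of all genes tested, 0.0%, 0.0%, 0.122% and 4.68% were called in these fits in the same order. F3 had 125, 333 and 232 in starved shBruce MEFs (-0.99, SE 0.27, edgeR adjusted p = 0.028), with no overlap with the shRenilla libraries given above. Igfbp3, a secreted IGF-binding protein, was lower at few counts, 14.1 to 18.1 against 29.5 to 37.1 (-0.96, edgeR adjusted p = 0.034). Ptpn14, a phosphatase that restrains YAP, was at -0.68 (edgeR adjusted p = 0.028) and at -0.34 with the length and GC trends removed (adjusted p = 0.039), where 5 of the 15 were called. That setting called 5.36% of all genes tested.

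Among the Hippo kinases and upstream regulators, 20 of 21 genes were tested (Dchs1 was not). Upon starvation, 3 of the 20 were called in shRenilla and 4 in shBruce MEFs, near the 17.0% and 23.0% of all genes tested, and the medians were -0.22 in shRenilla and -0.25 in shBruce MEFs. In shRenilla MEFs, 3 fell, namely Wtip (-0.57, edgeR adjusted p = 0.020), a LIM protein related to Ajuba, Nf2 (-0.46, edgeR adjusted p = 0.017), the merlin tumour suppressor, and Frmd6 (-0.45, edgeR adjusted p = 0.040), its FERM-domain relative, and this count was 0 without shRenilla Starv replicate 1 or 2. These 2 fits called 9.38% and 9.34% of all genes tested. In shBruce MEFs, Frmd6 (-1.07, edgeR adjusted p = 0.00018), Wwc1 (-0.82, edgeR adjusted p = 0.0034), which encodes KIBRA, and Nf2 (-0.62, edgeR adjusted p = 0.0023) fell. Taok3, a kinase upstream of MST, rose (0.93, edgeR adjusted p = 0.015), with 1217 in shBruce Starv replicate 1 against 545 and 561 in the other two, and it was 0.44 without that library (adjusted p = 0.0085).

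After starvation, 7 of the 20 were lower in shBruce than in shRenilla MEFs, against 23.9% of all genes tested that were called and 11.2% called as lower. The median over the list was -0.31. Mob1a had 184, 238 and 592 against 772 to 1196 (-1.59, SE 0.35, edgeR adjusted p = 0.022). Mob1b, the second gene of the MOB co-activators of LATS, had 159, 130 and 286 against 353 to 658 (-1.48, SE 0.33, edgeR adjusted p = 0.022). Lats1, the relative of Lats2, had 1439, 1271 and 1827 against 2257 to 3160 (-0.90, SE 0.18, edgeR adjusted p = 0.022). For each of them the groups were separate. With the length and GC trends removed, Mob1a was at -1.26, Mob1b at -0.83 and Lats1 at -0.38 (adjusted p = 0.037 for each), and 4 of the 20 were lower and 1 higher. That setting called 5.36% of all genes tested. The count of 7 was 0 without shRenilla Starv replicate 1, shRenilla Starv replicate 2 or shBruce Starv replicate 2, while leaving out shBruce Starv replicate 1 gave 4. Of all genes tested, 0.0%, 0.0%, 0.122% and 4.68% were called in these fits in the same order. In FM, 0 of the 20 were called with edgeR, as for 0.0% of all genes tested, and 0 with the DESeq2 Wald test or limma-voom. At an unadjusted p under 0.05 in edgeR there were 3, against 1750 of the 12154 genes.

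Of 13 relatives of the members, 11 were tested. Upon starvation of shRenilla MEFs and between the starved lines, 2 of the 11 were called, which is close to or below the 17.0% and 23.9% of all genes tested. In shRenilla MEFs, Wtip fell upon starvation and Mertk, a receptor tyrosine kinase of the family of Axl, rose from 2.45 to 5.38 in FM to 12.8 to 15.2 in Starv (1.72, edgeR adjusted p = 0.035), at levels far below those of Axl. In shBruce MEFs, 0 of the 11 were called upon starvation with edgeR, against 23.0% of all genes tested. At an unadjusted p under 0.05 there were 4, and the DESeq2 Wald test and limma-voom called 1 each. After starvation, Lats1 and Amot, the angiomotin relative of Amotl2, were lower in shBruce than in shRenilla MEFs, Amot with 495, 558 and 684 against 774 to 1028 (-0.68, edgeR adjusted p = 0.029) and -0.24 with the length and GC trends removed. Neither was called without shRenilla Starv replicate 1, shRenilla Starv replicate 2 or shBruce Starv replicate 2.

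**Figure D5:**
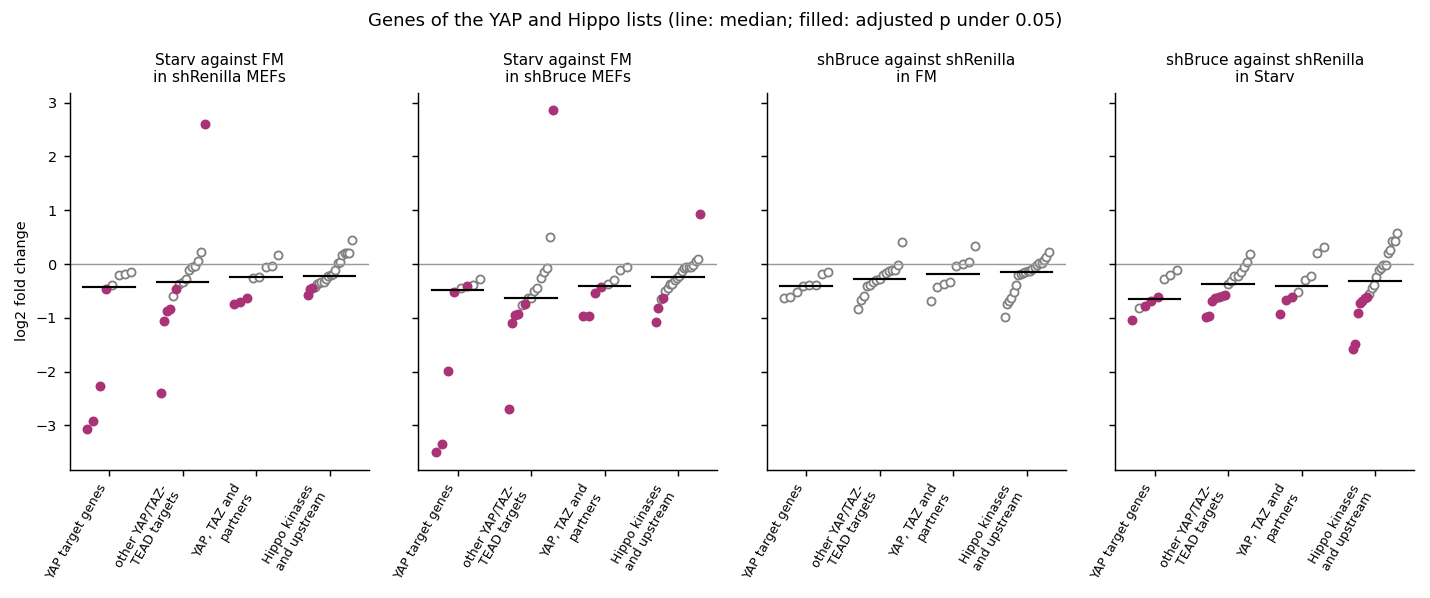
Log2 fold change (y axis) of each tested gene of 4 lists (x axis) in the 4 comparisons of 2 groups, with a line at the median and filled points where the edgeR adjusted p is under 0.05. The YAP target genes have 3 points between -3.06 and -2.26 in shRenilla MEFs, the other targets hold F3 near the bottom and Gadd45a at 2.60 and 2.87 at the top, and no point is filled for the lines in FM.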

How the data were processed

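Poly(A) RNA from 12 libraries of shRenilla and shBruce MEFs was sequenced as single 50-base reads. Per the study's methods, the authors removed rRNA reads, aligned the rest to mm10 with STAR 2.4.0d, and counted reads per gene with HTSeq 0.5.4p3. The annotation, strand setting and treatment of shared reads are not given in the sources used here. The deposited values are whole-number counts per gene symbol, without normalization, and 27 symbols had turned into dates (0.296% of all counts).

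Genes were filtered with filterByExpr, scaled by TMM and tested with edgeR 4.0.16 (glmQLFit and glmQLFTest) in R 4.3.3, in 1 fit of all 12 libraries with a mean per condition. Adjusted p-values (Benjamini-Hochberg) cover the 12154 genes tested, and a gene was called under 0.05. A normalized count is the count divided by the relative effective size of the library. RPKM were computed from the counts per length of the longest basic GENCODE M21 transcript. Exact permutation tests (two-sided, scipy 1.17.1) compared normalized counts of 3 against 3 libraries. The scripts were tested on simulated data.

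The members and gene lists were chosen with earlier results of these data known. Of each other list, up to 3 called genes in each direction with the largest fold changes were named, and from YAP, TAZ and their partners all 8. Foxf2 and Fjx1 are given for both lines, which was chosen after their values were seen. Of the 3 genes most like Ankrd1, 1 is not reported here. Alternatives were DESeq2 size factors, upper-quartile normalization, the DESeq2 1.42.0 Wald test, limma-voom (limma 3.58.1), no filter, at least 10 counts in every library, a separate fit of each comparison's own groups, the removal of trends against transcript length and GC content, the replicate number as a block, a fold of at least 1.5, and each library left out. Totals of 7717265 to 18510540 counts per library set the precision of low counts.

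Replicate numbers recur in the 4 conditions, but the deviations of same-numbered libraries from their condition means correlated between -0.456 and 0.157, and 3 of 12 pairs exceeded 0.1, so the numbers were not taken to pair libraries.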

Additional observations from a re-analysis of the deposited data

How the results depend on the processing

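The starvation calls of Cyr61 and Ctgf held in both lines under all 22 alternatives, and those of Ankrd1 under 22 in shRenilla and 21 in shBruce MEFs. Over the 8 members and 5 comparisons, 872 alternative values were computed, of which 796 kept their direction and their side of the threshold, 52 were no longer called, 14 became called and 10 changed sign. The number of members called upon starvation was 4 in shRenilla MEFs (3 with upper-quartile normalization or a fold of at least 1.5, 5 with only the groups compared or with the length and GC trends removed, 3 to 4 with 1 library left out) and 5 in shBruce MEFs, where it was 2 with only the groups compared, 3 with a fold of at least 1.5, and 3 to 7 with 1 library left out. Of all genes tested, 18.3% were called in shRenilla MEFs with upper-quartile normalization and 25.4% with the trends removed. With only the groups compared, 41.9% were called in shRenilla and 8.11% in shBruce MEFs. With 1 library left out, the shares were 9.34% to 26.2% and 15.1% to 32.7%. Between the lines in FM, 0 became 1 with the DESeq2 Wald test (0.625% of all genes tested) and 2 with only the groups compared (5.11%). In Starv, 4 became 0 with only the groups compared, 1 with the length and GC trends removed, 0 with these trends removed together with the replicate block, and 0 to 4 with 1 library left out. The shares of all genes tested were 0.0%, 5.36%, 0.00823% and 0.0% to 46.7% in the same order. With the replicate number as a block alone, the counts were 4, 4, 0, 4 and 0 for the 5 comparisons (Lats2 was lost in starved shBruce MEFs), and the numbers are not known to pair libraries. The block alone called 14.6%, 20.2%, 0.0%, 15.9% and 0.0% of all genes tested in these comparisons.

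Sign changes among members concerned Ankrd1 between the starved lines (-0.78 to 0.38 with 1 library left out, the latter without shBruce Starv replicate 3) and the interaction. There, Ankrd1 was at -0.22 with limma-voom and -0.40 to 0.77 with 1 library left out (-0.40 without shBruce Starv replicate 1). Axl was at -0.24 to 0.011 with 1 library left out (0.0017 and 0.011 without shBruce FM replicate 1 or 2). Crim1 was at 0.073 with the trends removed, 0.064 with the block added, and -0.22 to 0.10 with 1 library left out (0.051 for shRenilla FM replicate 2, 0.10 for shBruce Starv replicate 2). Ajuba was at -0.17 to 0.083 with 1 library left out (0.083 without shBruce Starv replicate 3). Yap1 between the lines in FM was at 0.072 with the trends removed, 0.071 with the block added and -0.078 to 0.0082 with 1 library left out (0.0082 without shBruce FM replicate 3). The cause of these changes was not tested.

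Counts over all genes also moved. With only the groups compared, 5013, 956, 597 and 0 genes were called in place of 2061, 2790, 0 and 2907 for the 2 starvation and the 2 line comparisons, and the DESeq2 Wald test called 76 between the lines in FM. Between the starved lines, 651 were called with the trends removed, 1 with the block added, 573, 15 and 5735 without shBruce Starv replicates 1, 2 and 3, and 0 without shRenilla Starv replicate 1 or 2. Genes called as higher and lower upon starvation were 1178 and 883 in shRenilla MEFs, 1588 and 641 with upper-quartile normalization, and 1432 and 1652 with the trends removed. In shBruce MEFs, they were 1506 and 1284, 1991 and 933, and 1743 and 2275 in the same order, and between the starved lines 1550 and 1357 against 430 and 221 with the trends removed.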
